A study of Mus musculus with 12 samples.

Results

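The polyA sites (PASs) described here are those labelled exon53 or exon53ext in the authors' deposited catalogue of 3′ ends of mouse hippocampal slices, the labels that go with single-exon genes. All entries with either label were taken. They numbered 1487 of the 56204 entries of this list, or 2.65% (95% Wilson interval, 2.52% to 2.78%), and belonged to 586 of its 16627 genes. The sources used here do not define these labels, and their meaning was inferred from the annotation and the positions. The label exon53 was given to 1217 entries in 539 genes and the label exon53ext to 270 entries in 133 genes. Both labels occurred in 86 genes, and 47 genes had exon53ext PASs without an exon53 PAS. Every entry was a distinct site.

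The list was made from 12 libraries of 3′READS, a method that sequences the 3′ ends of polyadenylated transcripts. The samples were acute hippocampal slices of C57BL/6 mice aged 3 months, with 3 replicates in each of 4 groups, and at each time the LTP and control slices of a replicate came from the same animal. In the LTP groups, chemical long-term potentiation was induced over 10 min with 50 µM forskolin, an activator of adenylyl cyclase, together with 30 mM KCl and 10 mM Ca2+ in the later part of the treatment. The control groups received 0.2% DMSO in ACSF for the same time, and slices of both kinds were frozen 1 hr or 3 hr after treatment. The 12 columns of read counts could not be matched by name to the samples, so that no difference between LTP and control slices and no replicate error is given. They were not used for read depth either. The list holds more sites and genes than the study reports after its filters on reads and relative abundance. The counts of PASs per gene given here may thus include sites below those filters. The list is 1 catalogue of sites, without replicates. The intervals on shares and medians cover counting error only, and no test between classes of genes was made.

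Most mammalian transcripts end by cleavage and polyadenylation, in which the nascent RNA is cut downstream of a hexamer such as AATAAA and a polyA tail is added. Genes with several PASs make mRNAs of different 3′ length, and in a gene without introns every such PAS lies in the same exon, with no competition from splicing to an alternative terminal exon. Intronless genes include the replication-dependent histones, whose mRNAs normally end at a stem-loop and carry no polyA tail, many G protein-coupled receptors, Sox and Fox transcription factors, the clustered protocadherins of the beta family and several immediate early genes that neurons induce on activity, such as *Jun* and *Junb*.

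The last 30 bases of annotated transcripts are printed for 9 genes from several of the groups described here, because these are the 3′ ends at which the hexamer can be read. All 9 carry a marked hexamer and do not represent the class. In the last 30 nt, AATAAA was present in 45.6% and no such hexamer in 26.8% of the 526 genes with an annotated single-exon transcript. They were taken from the GENCODE annotation of GRCm38 and are given 5′ to 3′ on the strand of the gene. Capitals mark AATAAA or a variant of it, which need not be the only variant present. The end is the end of the annotated single-exon transcript, in another build than that of the PAS list, and was not compared with the listed positions.
*Jun* (chr4:95049034-95049063, minus strand): tattcaAATAATggtttttaaaatcttgaa
*Junb* (chr8:84976910-84976939, minus strand): tttaagtaaaaAAAAAAttgtctttattaa
*Jund* (chr8:70700587-70700616, plus strand): tgtgttttcAGTAAAgtcttcgttacgcca
*Ier2* (chr8:84661331-84661360, minus strand): aggaaAATAAAgaccatcggtgtaaaacgc
*Ier5* (chr1:155096361-155096390, minus strand): agAATAAAacatgctttaatcagattgtta
*Arl4c* (chr1:88698225-88698254, minus strand): gaacagaAATAAActatttctacaatcaaa
*Sox11* (chr12:27334264-27334293, minus strand): caAATAAAttcattgacatttctggctaaa
*Malat1* (chr19:5795690-5795719, minus strand): ttttatgaAATAAAaactaaatatctctca
*H1f0* (chr15:79030475-79030504, plus strand): aactttaaAATAAAactggaaaggaaaaaa
The annotated ends of *Ier2*, *Ier5*, *Arl4c*, *Sox11*, *Malat1* and *H1f0* carried AATAAA, whereas those of the AP-1 genes *Jun*, *Junb* and *Jund* carried neither AATAAA nor ATTAAA, its most frequent variant, in these 30 bases. In *Junb* the capitals mark a run of A, and AGTAAA, the variant marked in *Jund*, lies upstream of them.

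The label was first compared with the annotation, in which 540 of the 586 genes (92.2%) were found on the same chromosome and strand. Of these, 433 genes (80.2%, 76.6% to 83.3%) had no annotated transcript with more than 1 exon, against 9 of 15097 genes (0.0596%) that carried exon3 or exon3ext PASs, labels read here as the last exon and the sequence after it. At least 1 single-exon transcript was annotated for 526 genes (97.4%, 95.7% to 98.4%), against 12.2% of the exon3 genes. All 586 genes are called single-exon genes below, including those that also have spliced transcripts and the 46 not matched. Among the matched genes, the label thus marked genes with at least 1 single-exon transcript. An exception was 14 genes for which the annotation held spliced transcripts alone. Among these were *H19*, the imprinted long noncoding RNA, and 1600012H06Rik, 2810030E01Rik (annotated as *Skida1*), 4930488L21Rik, B330016D10Rik and C630043F03Rik.

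The longest single-exon transcripts had a median length of 2183 nt (2026 to 2437 nt, n = 526 genes) and ranged from 143 nt to 93092 nt. For the 226 genes with 2 or more exon53 PASs and such a transcript, the distance between the outermost exon53 PASs was within the annotated length in 221 (97.8%, 94.9% to 99.1%). The exceptions were 9130024F11Rik, Gm14057, *Vaultrc5*, *Zfp830* and *Zxda*. In *Zxda*, an X-linked gene of the zinc finger list that the annotation classes as a pseudogene, the exon53 PASs covered 3811 nt while the annotated transcript was 2621 nt long.

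By annotated class, 452 of the 586 genes were protein-coding (77.1%), 57 were noncoding or of another class, 31 were pseudogenes and 46 were not matched. The protein-coding genes held 1075 of the PASs, the noncoding genes 186, the pseudogenes 60 and the unmatched genes 166. At least 2 PASs were listed for 52.7% of the protein-coding genes (48.0% to 57.2%), for 66.7% of the noncoding genes (53.7% to 77.5%) and for 41.9% of the pseudogenes (26.4% to 59.2%). These intervals overlap.

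The genes were then grouped by function, and the share of each group's listed genes that carried the single-exon labels was counted, against 3.52% of all listed genes. The groups with the highest shares were the replication-dependent histones, with 34 of 39 genes, the other histone genes, with 5 of 7, and the olfactory receptors, with 12 of 22. In the 3 groups of regulators, 13 of 30 genes of the intronless transcription factor list, 19 of 52 *Sox*, *Fox* and *Pou3f* genes and 8 of 27 immediate early genes were single-exon genes. The lowest shares were those of the zinc finger genes, at 4 of 404, and the ribosomal protein genes, at 2 of 173, while that of the small GTPases, at 4 of 127 (3.15%, 1.23% to 7.82%), was near the share of all listed genes. Of the 586 genes, 156 (26.6%) bore the names of RIKEN clones or predicted genes, against 8.70% of the other listed genes, and 257 fell into none of the groups. Since the groups were chosen with genes known to be intronless in mind, their shares describe the makeup of the label and are not independent evidence for it.

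**Figure D1:**
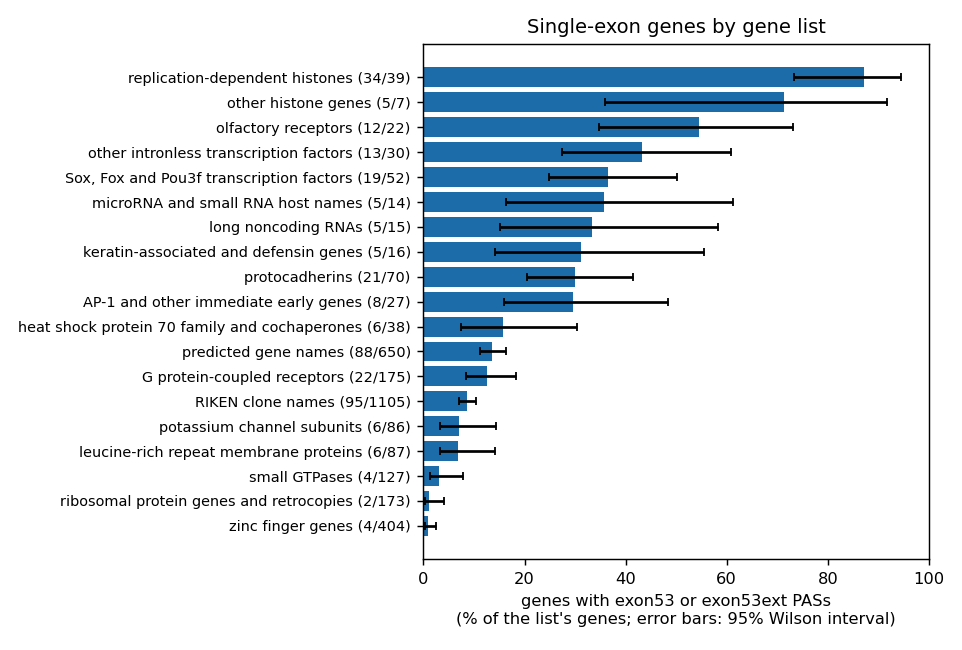
Share of the listed genes of each group that carried exon53 or exon53ext PASs, in % of the group's genes on the horizontal axis, with the number of such genes and the group size beside each name and 95% Wilson intervals as error bars. The replication-dependent histones stand highest at 34 of 39 genes, and the zinc finger genes lowest at 4 of 404.

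The PASs of single-exon genes were not evenly spread over the chromosomes. They made up 6.74% of all listed sites on chromosome 18 (121 sites in 34 genes), 5.32% on chromosome 13 (120 sites in 44 genes) and 4.71% on chromosome X (80 sites in 32 genes). On the other autosomes the share ran from 1.42% on chromosome 16 to 3.67% on chromosome 19, and none of the 22 sites on chromosome Y was among them. Chromosome 18 holds the *Pcdhb* cluster, with 89 of its sites, and chromosome 13 the *Hist1* cluster.

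The number of PASs per gene was counted next, since at least 2 are needed for alternative polyadenylation. Of the 586 genes, 320 had 2 or more PASs (54.6%, 50.6% to 58.6%), against 8253 of 15289 exon3 genes (54.0%, 53.2% to 54.8%), so that the intervals overlap. For exon3 genes only exon3 and exon3ext PASs were counted, and any in introns or upstream exons were left out. The comparisons in this paragraph thus set nearly all PASs of single-exon genes against a part of those of exon3 genes. UA sites, described below, were left out in both classes. With exon53 PASs alone the share was 49.2% (265 of 539 genes), against 49.5% for exon3 PASs alone. The genes differed more at the upper end, where 90 single-exon genes (15.4%, 12.7% to 18.5%) had 5 or more PASs against 10.4% (9.93% to 10.9%) of the exon3 genes. The median was 2 PASs per gene in both classes, and the means were 2.54 and 2.27.

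**Figure D2:**
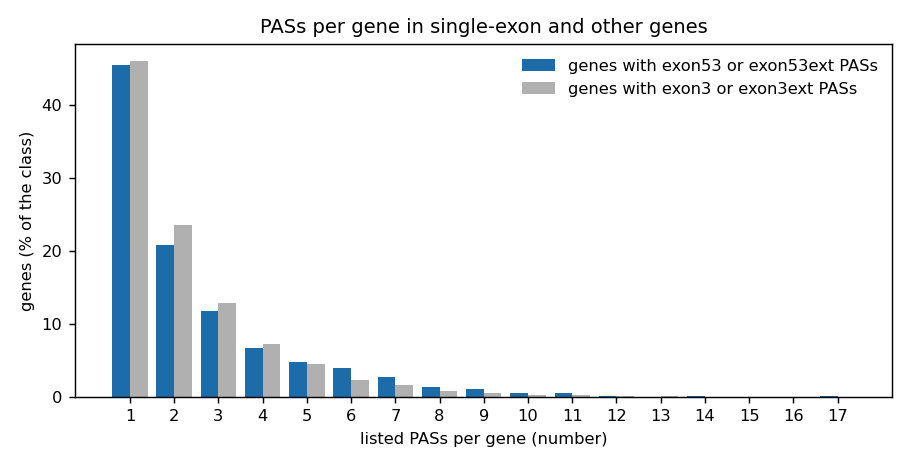
Number of listed PASs per gene on the horizontal axis and the share of genes, in % of the class, on the vertical axis, for the 586 genes with exon53 or exon53ext PASs and the 15289 genes with exon3 or exon3ext PASs. Only PASs with these labels are counted, so that intronic PASs of the exon3 genes are left out. Both classes have 1 PAS in 45.4% and 46.0% of genes, and from 5 PASs upward the bars of the single-exon genes are the taller ones up to 12 PASs.

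Neighbouring exon53 PASs of a gene lay a median of 197.5 nt apart (162 to 229 nt, n = 678 pairs), with the quartiles at 72.25 nt and 540 nt. For exon3 PASs the median was 259 nt (251 to 268 nt, n = 16200 pairs), and the intervals of these medians do not overlap. Distances under 100 nt made up 33.9% of the exon53 pairs (30.5% to 37.6%) against 28.5% of the exon3 pairs, and those over 1000 nt made up 13.9% (11.5% to 16.7%) against 18.3%. Exon53 PASs were thus listed at shorter spacing than exon3 PASs, over pairs of which many come from the same gene. Of the exon53 pairs, 1 lay closer than the 24 nt within which the authors clustered sites.

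**Figure D3:**
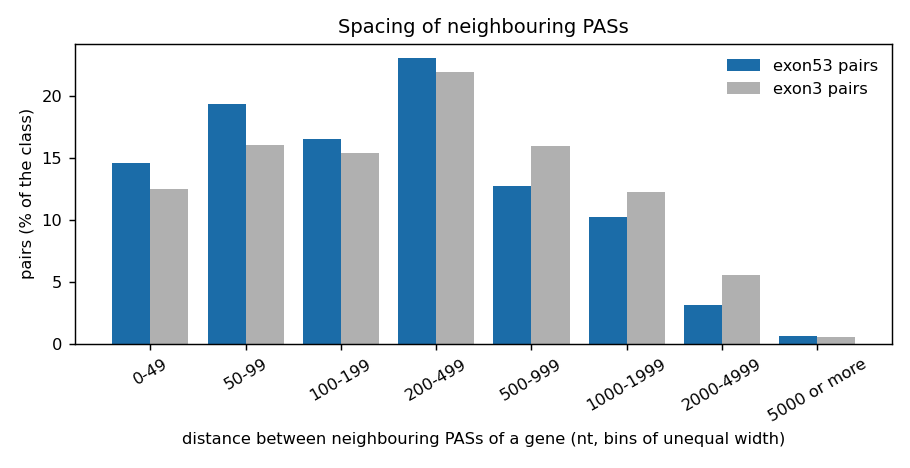
Distance between neighbouring PASs of a gene, in nt and in bins of unequal width, on the horizontal axis and the share of pairs, in % of the class, on the vertical axis, for 678 exon53 pairs and 16200 exon3 pairs. The exon53 bars are the taller ones in the 4 bins below 500 nt and the shorter ones in the 3 bins from 500 nt to 5000 nt.

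The outermost exon53 PASs of a gene were a median of 694 nt apart (580 to 803 nt, n = 265 genes), with quartiles of 258 nt and 1476 nt. For exon3 genes the median was 817 nt (782 to 853 nt, n = 7465 genes). The widest span by far was that of *Kcnq1ot1*, at 77813 nt, and the others did not exceed 5835 nt. The widest after it were *Pigm*, which encodes a mannosyltransferase of glycosylphosphatidylinositol anchor synthesis (5835 nt, 6 PASs), *Malat1* (5523 nt, 6 PASs), *Sox11* (5099 nt, 3 PASs) and *Epm2aip1* (4989 nt, 4 PASs), whose product binds the protein laforin.

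Among protein-coding single-exon genes, the number of PASs was counted in 4 classes of annotated length. At least 2 PASs were listed for 34.5% of the shortest class (312 to 1423 nt, n = 113), 42.7% of the next (1424 to 2357 nt, n = 110), 57.7% of the third (2359 to 3510 nt, n = 111) and 74.1% of the longest (3535 to 11294 nt, n = 112). The intervals of the shortest (26.4% to 43.7%) and the longest class (65.3% to 81.3%) do not overlap. In genes with 2 or more PASs, the median span was 133, 500.5, 698 and 1473.5 nt over the same classes. Longer single-exon transcripts were listed with more PASs over a wider stretch. Annotated length is itself drawn in part from the 3′ ends of known transcripts, so that length and PAS number share a source. Length also bounds the span, since exon53 spans lay within the annotated length in 97.8% of the genes compared above. The rise of the span with length is thus in part fixed in advance.

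Exon53ext PASs followed the exon53 PASs. In the genes with both labels, all 179 exon53ext PASs were downstream of the last exon53 PAS, by a median of 1418 nt (1042 to 1888 nt) and by 26 nt to 18861 nt. The corresponding median for exon3ext PASs was 1160 nt (1098 to 1222 nt, n = 3013). Without RIKEN and predicted names the exon53ext median was 1050 nt, below that of the exon3ext PASs, so that no order of these medians is drawn. Exon53ext made up 18.2% of the PASs of single-exon genes (16.3% to 20.2%), against 9.80% (9.49% to 10.1%) for exon3ext in the exon3 genes. At the gene level, 22.7% of single-exon genes (19.5% to 26.3%) and 13.3% of exon3 genes (12.8% to 13.8%) had such a downstream PAS. The listed sites were not compared with exon ends, so whether they lie beyond the exon was not tested. The farthest were those of the noncoding 4930594C11Rik, at 18861 nt, of 1700120K04Rik, at 13698 nt, and of BC020402, at 11840 nt.

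PASs listed under other genes lay close to these downstream sites. UA sites of other genes were counted, as were sites listed under another gene as well, which applied to 38 sites of single-exon genes. Within 5000 nt on the same strand, a PAS of another gene was listed for 25.9% of exon53ext PASs (21.1% to 31.5%) and 16.8% of exon53 PASs (14.8% to 19.1%), against 6.08% of exon3ext and 4.73% of exon3 PASs. With exon53 and exon53ext PASs pooled, the share was 18.5% (16.6% to 20.5%) for all single-exon genes. The pooled share of exon3 and exon3ext PASs was 4.86%. Pooled in the same way, the share was 52.2% for the histones and 49.4% for the *Pcdhb* genes, which lie in clusters. The pooled share was 14.1% (12.3% to 16.1%) for the single-exon genes without these families. The part of these neighbours in the share of exon53ext PASs was not tested.

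The immediate early genes of the class were *Arl4c*, *Ier2*, *Ier5*, *Ier5l*, *Jun*, *Junb*, *Jund* and *Rhob*, with 14 exon53 PASs and 1 exon53ext PAS. *Jun*, *Junb* and *Jund* encode subunits of the AP-1 transcription factor. Positions are given in the coordinates of the list, whose build is mm9 by the submitters' processing notes, in the order of transcription. *Jun* was listed on the minus strand of chromosome 4 at 94716393, 94716289 and 94715732, over 661 nt. *Junb*, on the minus strand of chromosome 8, had PASs at 87500874 and 87500813, and it was the one gene of the class among those the study tabulated as most regulated. *Jund*, on the plus strand of chromosome 8, had exon53 PASs at 73224311 and 73224515 and an exon53ext PAS at 73226260, 1745 nt further on. The 3 AP-1 genes thus differed in the layout of their sites, from a pair 61 nt apart in *Junb* to an exon53ext site 1745 nt after the last exon53 PAS in *Jund*.

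The remaining early genes had 1 or 2 sites. *Ier2*, an immediate early response gene, had 1 PAS (87185233 on the minus strand of chromosome 8). *Ier5*, from the same group of early response genes, had PASs at 156944656 and 156943497 on the minus strand of chromosome 1, or 1159 nt apart. *Arl4c*, which encodes an ADP-ribosylation factor-like GTPase, had PASs at 90596774 and 90594800 on the same strand, 1974 nt apart, the longest distance between exon53 PASs in this group. *Rhob*, a small GTPase gene induced by growth factors, was listed once, at 8504557 on the minus strand of chromosome 12. *Rap2b*, a Ras-family GTPase that is not an early gene, had 3 PASs over 2117 nt on chromosome 3 (61170237, 61170960 and 61172354, plus strand).

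Transcription factors were the largest set of regulators among the single-exon genes. The *Sox*, *Fox* and *Pou3f* genes numbered 19, with 39 exon53 and 8 exon53ext PASs, and 11 of them had 2 or more. *Sox1*, a factor of neural progenitors, had 7 PASs over 1559 nt (chromosome 8, plus strand, 12397994 to 12399553). *Sox11* and *Sox4*, which act in neuronal differentiation, had 3 each, over 5099 nt (chromosome 12, minus strand, 28024556 to 28019457) and 2276 nt (chromosome 13, minus strand, 29045154 to 29042878). In *Sox11* the first site stood alone, 4476 nt before the others, whereas in *Sox1* the first 4 sites lay within 278 nt. *Foxc1* had 6 PASs over 1471 nt and *Foxq1* 4 over 661 nt, both forkhead factors on the plus strand of chromosome 13. *Pou3f4*, a POU-domain factor of the developing brain on chromosome X, had 6 PASs, all of them exon53ext (108011295 to 108013467, plus strand). *Pou3f4* thus had no exon53 PAS.

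Of the other intronless transcription factors, 13 genes had 43 exon53 and 2 exon53ext PASs. *Maf*, a factor of the bZIP family, had 6 PASs over 1399 nt (chromosome 8, minus strand, 118228555 to 118227156). *Insm1*, a zinc finger factor of neuroendocrine and neuronal differentiation, had 5 over 735 nt, and *Cebpa*, a C/EBP factor, 4 over 1084 nt. In *Maf* all sites except the first lay 843 nt or more downstream of it, whereas the first sites of *Insm1* were 25 nt apart. *Cebpb*, the C/EBP member linked to memory, had 1 exon53 PAS and an exon53ext PAS 36 nt further on. Among the zinc finger genes, *Zfp238*, *Zfp830*, *Zxda* and *Zxdb* were of this class, and together they had 28 PASs. *Zxdb* had 10 of them over 2604 nt on chromosome X (91972922 to 91975526, plus strand).

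G protein-coupled receptors contributed 22 genes of 175 listed, with 46 exon53 and 12 exon53ext PASs. *Htr1a*, the serotonin 1A receptor, had 6 exon53 PASs over 447 nt and an exon53ext PAS 78 nt beyond (chromosome 13, plus strand, 106237751 to 106238276). *Mc4r*, the melanocortin 4 receptor, had 6 over 1177 nt on the minus strand of chromosome 18. *Drd5*, the D5 dopamine receptor, had 4 exon53 PASs over 1207 nt and an exon53ext PAS 26 nt beyond the last. The exon53 PASs of *Htr1a* thus lay in a shorter stretch than those of *Mc4r* and *Drd5*. The orphan receptor *Gpr27* had 6 PASs, all of them exon53ext. Of the 12 olfactory receptor genes, 6 had exon53ext PASs alone, and 10 of the 12 had a single PAS.

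**Figure D4:**
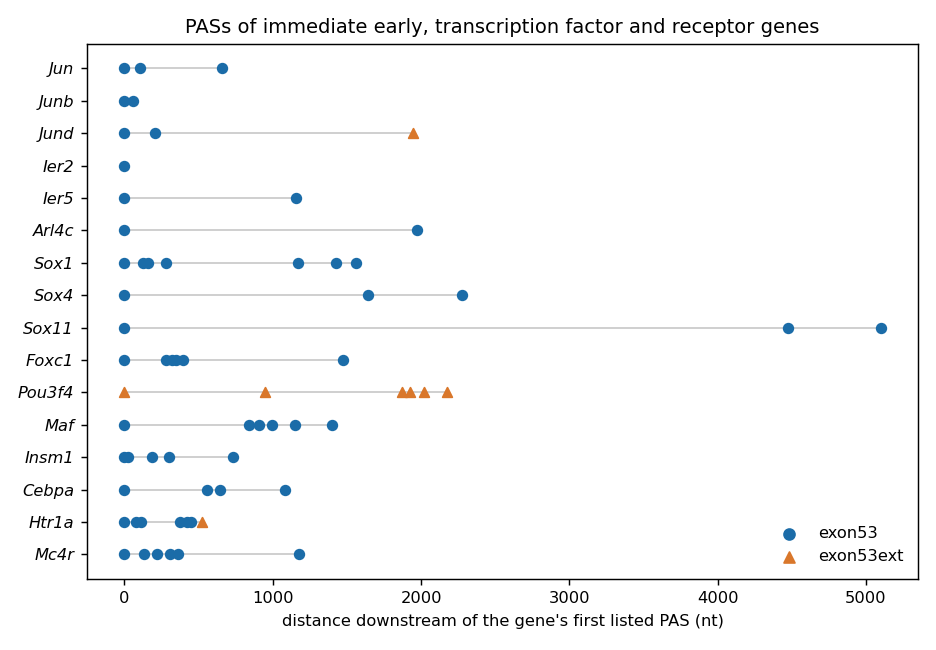
Listed PASs of 16 immediate early, transcription factor and receptor genes, placed by their distance in nt downstream of the gene's first listed PAS, with circles for exon53 and triangles for exon53ext and a line joining the outermost sites of a gene. *Sox11* has the widest exon53 span shown, at 5099 nt, *Junb* has 2 sites 61 nt apart, and all 6 sites of *Pou3f4* are exon53ext.

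Membrane and adhesion proteins of neurons formed a further group. All 21 protocadherin genes of the class were *Pcdhb* genes, homophilic adhesion molecules encoded one after another on the plus strand of chromosome 18, and 20 of them had 2 or more PASs. They held 62 exon53 and 27 exon53ext PASs, a share of 30.3% for exon53ext. *Pcdhb14* had the most, with 7 exon53 PASs over 955 nt and 5 exon53ext PASs up to 2272 nt beyond (37609562 to 37612789). Since the genes of this cluster follow each other closely and are similar in sequence, the gene given for each of these PASs is less certain than elsewhere.

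The leucine-rich repeat proteins of the class were 6 of 87 listed, with 12 exon53 PASs and 1 exon53ext PAS. *Lrrc4*, a postsynaptic adhesion molecule that binds netrin-G2, had 5 over 1477 nt (chromosome 6, minus strand, 28779608 to 28778131). *Slitrk1*, a postsynaptic partner of receptor tyrosine phosphatases, had 1, and *Amigo2*, an adhesion molecule of hippocampal CA2 neurons, had 2 that lay 177 nt apart. The potassium channel names numbered 6, of which *Kcnq1ot1* is the antisense noncoding RNA of *Kcnq1* and no channel. Of the channel genes, *Kcna5*, a Shaker-type subunit, had 3 PASs over 378 nt, and *Kcnj11*, the pore subunit of ATP-sensitive channels, had 3 over 61 nt. *Kcnf1*, a silent subunit, had 2 that were 2315 nt apart. *Kcna3*, another Shaker-type subunit, had 1 exon53 PAS and 1 exon53ext PAS 1172 nt downstream.

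Among the heat shock genes, 6 of 38 were single-exon genes, with 9 exon53 PASs and no exon53ext PAS. *Hspa1a* and *Hspa1b*, the stress-inducible copies of Hsp70 that lie side by side on chromosome 17, had 2 PASs 397 nt apart (35106701 and 35106304, minus strand) and 1 PAS (35093376), respectively. Their coding sequences are nearly identical, but the last 30 bases of their annotated transcripts differ. Whether reads were shared between them was not examined. *Hspa2* had 1 PAS, and the cochaperone gene *Dnajb3* had 3 within 200 nt.

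Of the long noncoding RNAs, *Kcnq1ot1*, the imprinted antisense transcript, had 14 exon53 PASs on the minus strand of chromosome 7, from 150480886 to 150403073. *Malat1*, a nuclear-speckle RNA abundant in neurons, had 6 on the minus strand of chromosome 19, from 5801213 to 5795690. *Neat1*, whose RNA scaffolds paraspeckles, had 3 over 1437 nt on the same strand, from 5843744 to 5842307. Its longest annotated single-exon transcript was 20771 nt long, and which *Neat1* transcript these sites end was not examined. *Kcnq1ot1*, *Malat1* and *Neat1* had no exon53ext PAS, and the sites of *Kcnq1ot1* covered 77813 nt against 5523 nt for *Malat1*. *Peg13* and *H19*, both imprinted, had 1 each. Small RNA names were represented by *Mir17hg*, *Rmrp*, *Rpph1*, *Snhg8* and *Terc*, with 11 exon53 and 2 exon53ext PASs. Of these, *Rmrp* and *Rpph1*, the RNA parts of RNase MRP and RNase P, are made by RNA polymerase III and do not normally receive a long polyA tail, and they were listed with 3 and 4 exon53 PASs.

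The genes with most PASs were in part unnamed transcripts. B430319G15Rik had 11 exon53 PASs over 2723 nt and 6 exon53ext PASs (chromosome 9, minus strand, 92436451 to 92425266), 17 in all and the most of any single-exon gene. 2900097C17Rik had 8 exon53 PASs over 3978 nt and 3 exon53ext PASs on chromosome 2. 6230400D17Rik had 4 exon53 and 7 exon53ext PASs on chromosome 14, and *Hist1h2bg* had 3 and 8. *Kcnq1ot1* and *Pcdhb14* completed the genes with 11 or more.

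In the replication-dependent histone genes, exon53ext was the more frequent label. The 34 genes had 39 exon53 and 51 exon53ext PASs, so that 56.7% of their sites (46.4% to 66.4%) were exon53ext, against 15.7% (13.9% to 17.7%) in the other single-exon genes. Exon53ext PASs alone were listed for 15 of the 34, and these made up 31.9% of the 47 genes of that kind. Without *Hist1h2bg*, the histone gene with most PASs, the share of exon53ext was 54.4%. *Hist1h2bg*, which encodes an H2B, had its 11 PASs over 1879 nt of the plus strand of chromosome 13 (23663729 to 23665608), with the 3 exon53 PASs in the first 151 nt. *Hist1h3d* had 7 and *Hist1h2ad* 6 PASs, all of them exon53ext. In contrast, all 5 PASs of *Hist1h1d* and all 5 of *Hist1h2ac* were exon53, over 2517 nt and 1683 nt.

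The stem-loop of histone mRNAs was located in the annotated transcripts, as the letters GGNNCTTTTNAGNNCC on the strand of the transcript. It was found in 23 of the 33 histone genes with an annotated single-exon transcript (69.7%, 52.7% to 82.6%), against 124 of 141767 transcripts of the whole annotation (0.0875%). The most frequent form, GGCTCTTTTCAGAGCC, occurred in 13 genes. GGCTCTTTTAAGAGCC occurred in 4 genes, and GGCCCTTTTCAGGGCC, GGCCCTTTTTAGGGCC and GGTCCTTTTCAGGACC in 2 each. No match says only that these letters are not in the annotated transcript. The transcripts without a match ranged from 312 nt in *Hist1h4k* to 2620 nt in *Hist2h2be*. Stretches of 30 bases around the stem-loop, with the stem-loop in capitals, are printed for 5 histone genes that cover 3 of these forms and both short and long annotated ends (GRCm38, 5′ to 3′).
*Hist1h1c* (chr13:23739505-23739534, plus strand): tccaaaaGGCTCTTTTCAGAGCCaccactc
*Hist1h2ac* (chr13:23683470-23683499, minus strand): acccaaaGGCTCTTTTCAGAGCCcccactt
*Hist1h2ad* (chr13:23574888-23574917, plus strand): aaacaaaGGCTCTTTTCAGAGCCatccact
*Hist1h2bk* (chr13:22036293-22036322, plus strand): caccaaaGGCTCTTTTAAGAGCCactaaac
*Hist1h4h* (chr13:23531451-23531480, plus strand): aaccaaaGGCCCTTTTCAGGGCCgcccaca

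The annotated transcript ran on after the stem-loop by a median of 185 nt (51 to 752 nt, n = 23 genes), from 23 nt in *Hist1h2bb* to 4884 nt in *Hist1h1d*. It ended within 100 nt in 8 genes, of which 5 had exon53ext PASs alone. It ran on for more than 100 nt in 15 genes, of which 3 had exon53ext PASs alone. Among the genes shown above, 42 nt followed the stem-loop in *Hist1h2ad* and 30 nt in *Hist1h2bk*, whose PASs were all exon53ext, and 2010 nt followed it in *Hist1h2ac* and 840 nt in *Hist1h1c*, whose PASs were all exon53. *Hist1h4h*, with 46 nt, had 2 PASs of each label. Other genes had the opposite layout. *Hist1h3d*, with 752 nt, *Hist1h4d*, with 770 nt, and *Hist1h4j*, with 385 nt, had exon53ext PASs alone. *Hist1h3a*, with 37 nt, had exon53 PASs alone. The remaining histone genes with exon53ext PASs alone, such as *Hist1h3g*, had no stem-loop found and are outside these counts. The difference between 5 of 8 and 3 of 15 genes was not tested, and the annotation with which the authors labelled the sites may not be the one used here. The listed histone PASs were not placed relative to the stem-loop, and their read numbers were not analysed here.

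**Figure D5:**
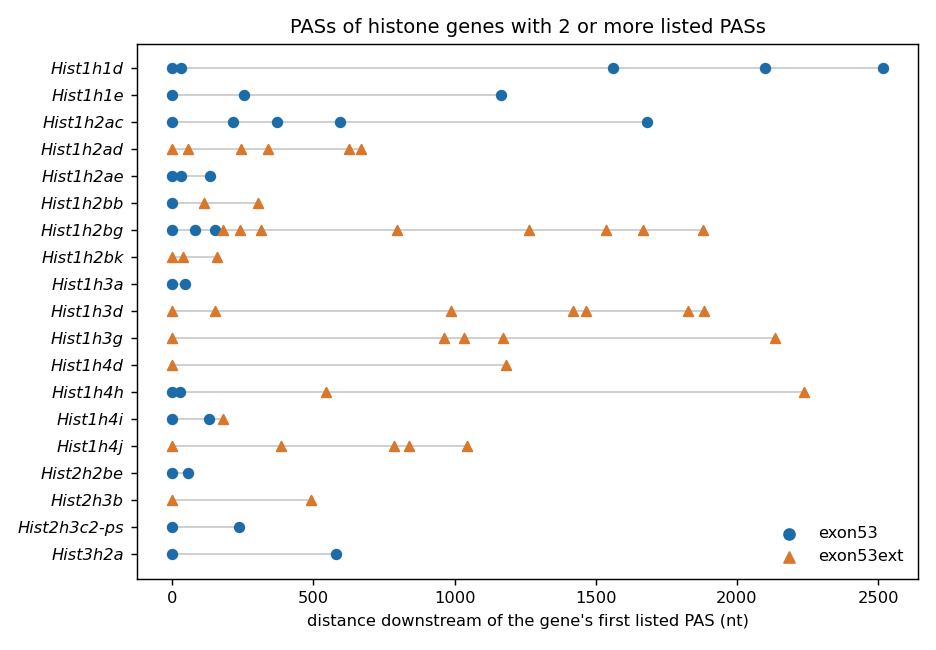
Listed PASs of the 19 replication-dependent histone genes with 2 or more, placed by their distance in nt downstream of the gene's first listed PAS, with circles for exon53 and triangles for exon53ext. *Hist1h1d*, *Hist1h1e* and *Hist1h2ac* have exon53 sites alone, and *Hist1h2ad*, *Hist1h3d*, *Hist1h3g* and *Hist1h4j* have exon53ext sites alone.

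The other histone genes, whose mRNAs are polyadenylated or can end in either way, carried mostly exon53 PASs, 9 of 11. *H1f0*, the linker histone of differentiated cells, had 3 over 1068 nt (chromosome 15, plus strand, 78859866 to 78860934). *H2afj*, a replacement H2A, had 3 over 1272 nt. *H2afx*, the H2A variant phosphorylated at DNA breaks, had 1 exon53 PAS and 2 exon53ext PASs 177 nt and 962 nt downstream. *H1fx* and *H2afb1* had 1 each.

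Hexamers were counted in the last 40 nt of the annotated transcripts, with AATAAA looked for first, then ATTAAA, then any other hexamer that differs from AATAAA at 1 base, all on the strand of the transcript. AATAAA was present in 51.1% of the single-exon genes (46.9% to 55.4%, n = 526) and in 62.8% of the exon3 genes (62.0% to 63.5%, n = 15081). ATTAAA was present in a further 11.4% and 14.5%, and another variant in 16.7% and 13.6%. No such hexamer was found in 20.7% of the single-exon genes (17.5% to 24.4%) and in 9.13% of the exon3 genes (8.68% to 9.60%). The histones had none in 19 of 33 genes and AATAAA in 8. Without the histones, AATAAA was present in 52.9% (48.5% to 57.3%) and no hexamer was found in 18.3% of single-exon genes (15.1% to 21.9%), so that the intervals still did not overlap those of the exon3 genes. Pseudogenes and genes with RIKEN or predicted names were not left out. Such names were borne by 26.6% of the 586 genes and 8.70% of the other listed genes, and their part in the difference was not tested. These letters were read at annotated ends and not at the listed PASs, whose sequence was not analysed here.

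Single-exon genes were also listed with UA sites, a label taken to mean sites on the opposite strand upstream of a gene. UA sites were present in 108 genes (18.4%, 15.5% to 21.8%), against 13.1% (12.6% to 13.7%) of the exon3 genes. All 232 UA sites of single-exon genes located at 1 place lay upstream of the first exon53 or exon53ext PAS, by a median of 3480.5 nt (3247 to 3722 nt) and by 833 nt to 7059 nt. *Insm1* had 6 UA sites, *Sox4* 5 and *Foxc1* 4. *Htr1a* had 2, and *Sox1* and *Maf* had none.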

How the data were processed

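The 12 libraries of 3′READS were grouped by the sample labels into LTP and control slices at 1 hr and 3 hr, with 3 replicates each, each animal giving both LTP and control slices. The authors mapped reads with bowtie 2, defined PASs by the non-genomic Ts of the reads and clustered sites within 24 nt. The deposited table gives the symbol, chromosome, strand, position and label of each site, and 12 columns of read counts. The names of these 12 columns match no sample label, so they were not used, and the comparison of LTP with control slices that had been planned was not run. Read depth and any limit on reads applied before deposit were not examined. Positions are in mm9, per the submitters' processing notes, and were not converted.

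Sites, genes, distances and 95% Wilson intervals, and order-statistic intervals of medians, were computed with Python 3.11.15, pandas 2.3.3, numpy 2.4.6 and scipy 1.17.1, and figures drawn with matplotlib 3.10.9. The counting was tested on simulated data. Symbols were matched to GENCODE M21 (GRCm38) on the same chromosome and strand, 490 directly and 50 through RefSeq synonyms, and the 46 others, of which 4 symbols lay elsewhere in that annotation, were left unmatched. Hexamers and stem-loops, a count added after seeing the data, were read in 1 transcript per gene. For single-exon genes this was the longest single-exon transcript, of the basic set where there was one. Most exon3 genes have no single-exon transcript, so that their ends were mostly read in spliced transcripts. The genes and lists were chosen with earlier results of these data known. Genes named singly were those with most PASs, the widest span or the farthest exon53ext PAS, up to 6 per list of functions, those the study tabulated as most regulated, and up to 5 without a single-exon transcript. *Zfp238*, *Zfp830*, *Zxda*, 9130024F11Rik, Gm14057, *Vaultrc5*, the small RNA genes, *Ier5l*, *Hist1h2bk* and *Hist1h2bb* and the other histones outside this rule were added after their values were seen. Some genes that this rule takes are not reported here. Alternatives are given in the closing section.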

Additional observations from a re-analysis of the deposited data

How the results depend on the processing

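The share of single-exon genes with 2 or more PASs, 54.6%, was 49.2% with exon53 PASs alone and 61.9% when UA sites were counted. The share of genes with single-exon transcripts alone, 80.2%, was 85.2% in the GENCODE basic set and 97.4% when 1 such transcript sufficed. AATAAA was present at 45.6% of annotated ends in a window of 30 nt in place of 40 nt (51.1%), a window added after seeing the data. Of 38 recounts of the gene groups, 34 stayed within 1.5 times. The exceptions were histones (19 genes) and olfactory receptors (6) with exon53 alone, and ribosomal protein genes, which fell to 1 with exon53 alone and to 1 when shared sites were left out. Leaving out shared sites, merging sites within 24 nt or leaving out RIKEN and predicted names moved the median distance between exon53 PASs and the share of genes with 2 or more PASs by less than their intervals. Without RIKEN and predicted names, the median distance to exon53ext PASs was 1050 nt in place of 1418 nt. No paired analysis was possible because the count columns carry no sample names, so the animal block, DESeq2, the unfiltered fit and the fits without each replicate were not run. Hexamers at the listed PASs were not counted, since no mm9 sequence was used here. The interferon list held no gene. Without read numbers, a site seen in few reads weighs as much as one seen in many.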

Other observations

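Some single-exon PASs were listed under another gene as well. This applied to 38 sites in 18 genes, or 2.56% (1.87% to 3.49%). Of these, 31 were UA sites of 12 other genes, 6 were exon3 sites of 5 genes and 1 was an intronic site. B430319G15Rik, the single-exon gene with most PASs, shared 12 of its 17 sites with *Plod2*, under which they were listed as UA. The sites of 4933427E11Rik (3 sites, *Jrk*) and A630072M18Rik (3 sites, *Rsbn1l*) were listed in the same way. AI450353 shared 2 exon53 sites with the exon3 sites of AA465934.

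In 3 genes, Gm5512, Gm5643 and BC002163, single-exon labels occurred together with exon3, exon3ext or intronic labels. Symbols in the form of a date, such as 5-Sep, were given to 24 genes of the list. On the opposite strand, with UA sites counted, a PAS of another gene was listed within 5000 nt of 32.6% of exon53ext PASs (27.3% to 38.4%) and of 19.1% of exon53 PASs (17.0% to 21.4%), against 28.7% of exon3ext and 24.7% of exon3 PASs.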
